A study of Mus musculus with 4 samples.

Results

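The 45 genes described here are autosomal mouse genes known to be imprinted in at least some tissues, spread over 16 chromosomal domains. They were chosen by symbol from a list and kept where at least 1 unique molecular identifier (UMI) was counted in any section. All 45 of the 45 listed genes met that rule, out of 20387 genes with a UMI over tissue and 32285 features in use. Olfactory receptor genes were set beside them to stand for the background of the assay, with 1107 such genes holding a UMI. Whether some of them are expressed in pancreas was not tested.

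The study placed 4 fixed pancreas sections, each from its own mouse with acute pancreatitis, in the probe-based Visium CytAssist assay, in which every captured spot covers several cells. The mice labelled PDX1-Cre (WT), 2 in number, are called Ehmt2+/+ here, and the 2 labelled EHMT2 knockout (KO) PDX-Cre are called Ehmt2 fl/fl, the study's names. All were C57Bl/6 and, by the study's methods, 4 weeks old. All 4 received caerulein, a cholecystokinin analogue, at 50 μg/kg in 8 hourly injections following a 12 h fast, and tissue was taken 18 h after the first dose. Every mouse carried the Cre, whose Pdx1 promoter is active in the pancreatic epithelium, so immune, vessel and connective tissue cells of the knockout sections would keep the gene, and no saline section was among them.

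An imprinted gene is transcribed mainly from the copy inherited from the mother or mainly from that inherited from the father. The choice is set by DNA methylation laid down at a control region in the germ line and kept through each cell division, and in several domains histone methylation, including the H3K9 methylation made by Ehmt2 (G9a) with Ehmt1 (GLP), keeps the silent copy silent in the placenta. Many of the genes regulate growth before birth and fall to low levels in adult organs. UMI counts carry no allele information, so the values below give the summed output of both copies and cannot show gain or loss of imprinting.

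The sections differed in depth and composition. Over tissue they held 7000825 to 43803829 UMIs on 6183 to 10285 spots, and the largest total belonged to Ehmt2+/+ replicate 1, whose median spot held 6285 UMIs against 759 to 932 in the other 3 sections. Of these UMIs, 65.7% and 53.3% came from digestive enzyme genes in the Ehmt2+/+ sections, against 22.4% and 21.6% in the Ehmt2 fl/fl sections. Olfactory receptor genes together took 0.0312% and 0.634% in the Ehmt2+/+ sections and 1.01% and 1.48% in the Ehmt2 fl/fl sections. Ehmt2 itself was counted 865 and 33 times in the Ehmt2+/+ sections and 73 and 101 times in the Ehmt2 fl/fl sections, or 19.7, 3.79, 10.4 and 11.9 counts per 1000000 (CPM). Outside Ehmt2+/+ replicate 1 these values lay near the median of olfactory receptor genes, the background of the assay. Its level therefore did not check the labels, which a probe outside the deleted exons could not do either. The Y-linked genes Ddx3y, Eif2s3y, Kdm5d and Uty had 0 or 1 UMI in each Ehmt2+/+ section and 36 to 150 in each Ehmt2 fl/fl section. Olfactory receptor genes had a median of 11 and 48 UMIs in the Ehmt2+/+ sections, so the Y-linked counts there lay below the background. In the Ehmt2 fl/fl sections the Y-linked genes were at 0.600 to 1.78 times the olfactory receptor median. Genotype and a possible difference in sex therefore cannot be told apart in any comparison of genotypes here. Pairs of sections shared 13898 to 14336 spot barcodes, which name positions on the slide.

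Of the imprinted genes, 19 of 45 stood at or above the 95th percentile of olfactory receptor genes in all 4 sections, beside 39.3% of all genes with a UMI. In Ehmt2+/+ replicate 1 that percentile was 0.571 CPM, in Ehmt2+/+ replicate 2 it was 9.51, and in the Ehmt2 fl/fl replicates it was 17.1 and 21.9. The 19 genes were Gnas, Cd81, H13, Nap1l4, Impact, Grb10, Tssc4, Osbpl5, Mcts2, Cdkn1c, Ube3a, Igf2r, Cobl, Phlda2, Copg2, Ppp1r9a, Slc22a2, Atp10a and Inpp5f. A further 10 genes reached the percentile in no section, and 16 did so in some. Counts of different genes depend on how many probes each has, so the olfactory receptor genes serve as a floor and not as a measure of abundance between genes.

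**Figure D1:**
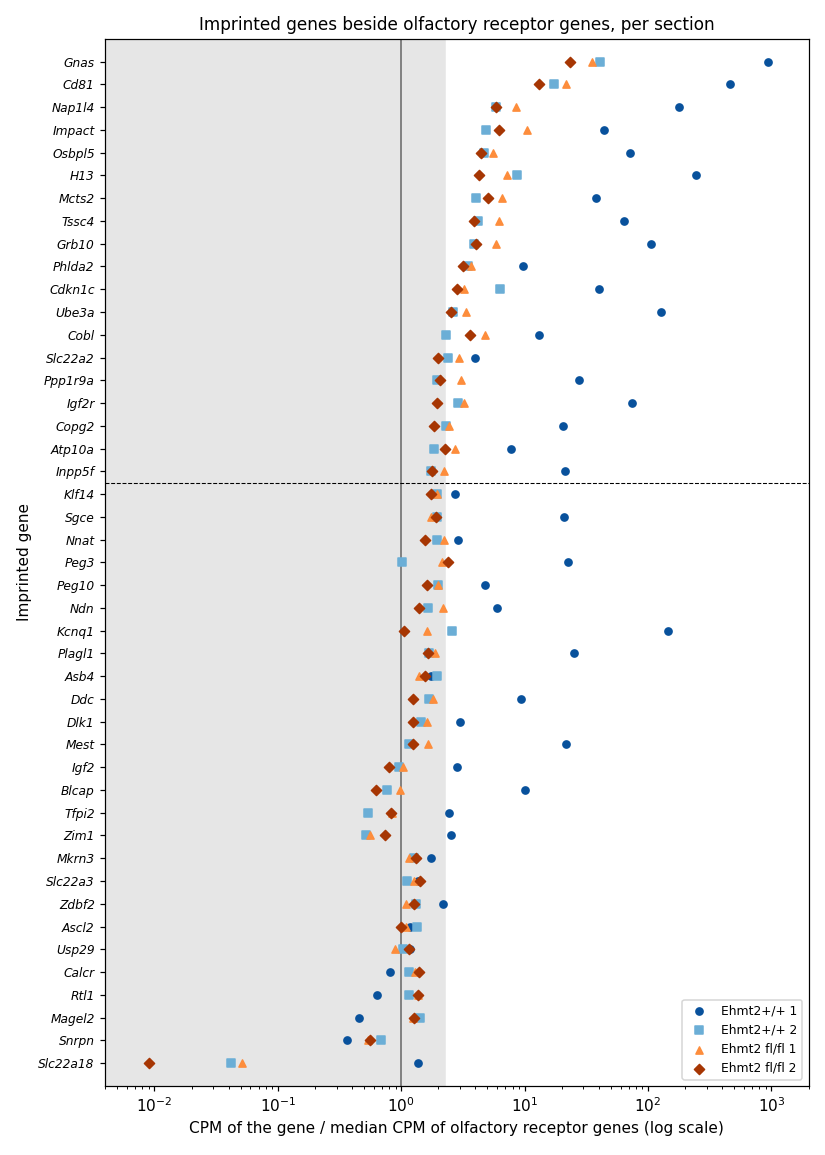
CPM of each imprinted gene divided by the median CPM of 1107 olfactory receptor genes in the same section, on a log scale, with 1 point per section and gene. The vertical line marks that median, the shading ends at the highest of the 4 sections' 95th percentiles, and the dashed line separates the 19 genes at or above their own section's 95th percentile everywhere from the other 26. Gnas runs from 23.3 to 948 times the median, Snrpn lies below the median in all 4 sections, and the genes above the dashed line lie farthest to the right in Ehmt2+/+ replicate 1.

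Gnas, Cd81 and Grb10 act in signalling or at the cell surface and stood above the floor in every section. Gnas, which encodes the stimulatory G protein alpha subunit, had 10428 and 1949 UMIs in the Ehmt2+/+ sections and 2067 and 2562 in the Ehmt2 fl/fl sections, or 238, 224, 295 and 301 CPM. Cd81, a tetraspanin of the plasma membrane, was at 117 and 96.0 CPM in the Ehmt2+/+ sections and 184 and 169 CPM in the Ehmt2 fl/fl sections. For both genes the Ehmt2 fl/fl sections lay above the Ehmt2+/+ sections without overlap on this scale, as they did for most genes measured. Grb10, an adaptor that dampens insulin and IGF1 receptor signalling, was at 26.6 and 21.3 CPM in the Ehmt2+/+ sections and 49.1 and 52.2 CPM in the Ehmt2 fl/fl sections.

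Of the IGF2 ligand and its clearance receptor, the receptor stood above the floor in every section and the ligand in 1. Igf2r, which takes IGF2 to the lysosome, was at 18.6 and 16.0 CPM in the Ehmt2+/+ sections and 27.3 and 25.2 CPM in the Ehmt2 fl/fl sections, between 1.95 and 74.2 times the olfactory receptor median. Igf2, the fetal growth factor, had 31 and 46 UMIs in the Ehmt2+/+ sections and 61 and 88 UMIs in the Ehmt2 fl/fl sections. That put Igf2 at 0.708, 5.29, 8.71 and 10.4 CPM, from 0.800 to 2.82 times the olfactory receptor median, and above the 95th percentile only in Ehmt2+/+ replicate 1. Its neighbour H19, a long noncoding RNA, had no UMI in any section, as did the noncoding RNAs Meg3, Rian, Mirg, Kcnq1ot1, Peg13 and Airn. The noncoding RNA Xist was also at 0 UMIs in all 4 sections, those with 0 or 1 UMI of each Y-linked gene included, so whether these RNAs had a working probe is not known. Where a probe works, a count of 0 allows up to 3 UMIs, or 0.0685 and 0.345 CPM in the Ehmt2+/+ sections and 0.429 and 0.353 CPM in the Ehmt2 fl/fl sections, for counting error only. The 5th percentile of olfactory receptor genes was higher, 2.45 CPM in Ehmt2+/+ replicate 2 and 3.29 and 6.23 CPM in the Ehmt2 fl/fl replicates. These limits are therefore not read as bounds on the expression of these RNAs.

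Growth suppressors of distal chromosome 7 were among the genes above the floor. Cdkn1c, the cell cycle inhibitor p57, was at 10.0 and 34.6 CPM in the Ehmt2+/+ sections and 27.4 and 36.8 CPM in the Ehmt2 fl/fl sections, and the groups overlapped. Phlda2, a growth restrainer of the placenta, was at 2.44 and 19.2 CPM in the Ehmt2+/+ sections and 31.0 and 41.3 CPM in the Ehmt2 fl/fl sections. Kcnq1, a potassium channel subunit of the same domain (chr7:143106362-143427042, + strand of GRCm38), had 1595 and 124 UMIs in the Ehmt2+/+ sections and 96 and 115 UMIs in the Ehmt2 fl/fl sections. At 36.4, 14.3, 13.7 and 13.5 CPM it was the only imprinted gene whose Ehmt2 fl/fl sections both lay below both Ehmt2+/+ sections, beside 0.795% of all genes. In Ehmt2+/+ replicate 1 it stood at 145 times the olfactory receptor median, and in the other 3 sections at 1.05 to 2.58 times. Slc22a18, a membrane transporter of the same domain, had 15, 2, 3 and 1 UMIs, and Ascl2, a transcription factor of trophoblast and intestinal stem cells, had 13, 64, 64 and 109 UMIs, from 0.991 to 1.33 times the olfactory receptor median.

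Other genes reached the 95th percentile in some sections or in none. Snrpn, a splicing protein of neurons, had 4, 33, 32 and 62 UMIs and stayed under the olfactory receptor median in every section. The neighbouring Magel2 and Mkrn3, and Rtl1, Calcr, Zdbf2, Usp29 and Slc22a3, were at or above the 95th percentile in no section, with 0.455 to 2.18 times the median over the 4 sections and these 7 genes. Dlk1, a fetal regulator of fat and endocrine cell differentiation, was at 0.753, 7.93, 13.7 and 16.1 CPM and reached the 95th percentile only in Ehmt2+/+ replicate 1. The same held for Igf2, Plagl1, Mest, Ddc, Blcap, Tfpi2 and Zim1, while Asb4, a ubiquitin ligase adaptor, reached it only in Ehmt2+/+ replicate 2. Peg10, a retrotransposon-derived gene of the placenta, and Ndn, a growth regulator of neurons, reached it in 2 sections, and Klf14, Nnat, Sgce and Peg3 in 3.

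Overlapping genes add an uncertainty to single values. Mcts2 (chr2:152687035-152687946) lies inside H13 (chr2:152669461-152708670) on the same + strand and is a retrocopy of the X-linked Mcts1, so its counts may hold UMIs of that copy. Mcts2 was at 9.45 and 22.2 CPM in the Ehmt2+/+ sections and 54.9 and 65.9 CPM in the Ehmt2 fl/fl sections. H13, an intramembrane protease of the endoplasmic reticulum, was at 61.1 and 47.5 CPM in the Ehmt2+/+ sections and 60.9 and 55.1 CPM in the Ehmt2 fl/fl sections. The groups thus overlapped for H13 and not for Mcts2. Both Ehmt2 fl/fl sections lay above both Ehmt2+/+ sections for 90.2% of all genes with a UMI, so Mcts2 behaved as most genes did. Nnat (chr2:157560078-157562522) lies inside Blcap (chr2:157556362-157571274) on the opposite strand.

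To ask whether loss of Ehmt2 in the pancreatic epithelium went with a different output of imprinted genes, UMIs summed over each section were compared between genotypes, 2 sections against 2. On the CPM scale, 40 of 45 imprinted genes were higher in both Ehmt2 fl/fl sections than in both Ehmt2+/+ sections, beside 90.2% of all genes with a UMI, so the share of imprinted genes was close to the background. In sums over a section, more cells of a type and more RNA per cell cannot be told apart. With trimmed mean of M-values (TMM) scaling in edgeR, 44 imprinted genes passed the filter on low counts and 0 of 44 were called at a Benjamini-Hochberg adjusted p under 0.05, beside 0.0947% of all 20066 genes tested. At an unadjusted p under 0.05 there were 3 imprinted genes, Kcnq1, H13 and Ube3a, against 5.01% of all genes, and DESeq2 called 1, Kcnq1, beside 0.957% of all genes. The enzyme share also differed between the genotypes, and depth set Ehmt2+/+ replicate 1 apart from the other sections. A fit with the digestive enzyme genes left out and fits with a section left out were among the alternatives. Beyond these fits, the part of enzyme share and depth in these values was not tested.

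The median log2 fold change of the 44 imprinted genes was 0.37, beside 0.25 over all genes tested and 0.80 over 1105 olfactory receptor genes. Without TMM factors the median of all genes moved from 0.25 to 1.64, and that of the imprinted genes moved to 1.64 as well, so folds of single genes between genotypes are given relative to the median of all genes, unless stated to be as fitted. Their standard errors and p-values are those of the fold as fitted, tested against 0, and not of the relative value. On that scale the 19 genes above the floor had a median of -0.80 and the other 25 tested a median of 0.26. The 13 of the 19 listed as maternally expressed had a median of -0.96, and the 2 listed as paternally expressed, Impact and Mcts2, had 0.20 and -0.06. Grb10, Cobl, Inpp5f and Gnas, the other 4, listed as mixed, had a median of -0.99, as low as that of the maternally expressed genes. Among the other tested genes, those not above the floor in all 4 sections, the same split gave 0.29 for 15 paternally and 0.32 for 8 maternally expressed genes, and -0.59 for 2 mixed genes. Some of these stood far above the olfactory receptor median in Ehmt2+/+ replicate 1, such as Kcnq1 at 145 and Plagl1 at 25.2 times. These are descriptions of counts whose level relative to the floor differs, with no test of the classes. Relative to all genes, olfactory receptor genes had a median of 0.55. The median over all genes above the floor, 39.3% of those with a UMI, was not computed. Whether -0.80, -0.96 and -0.99 differ from the value of other genes above the floor is therefore not known.

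**Figure D2:**
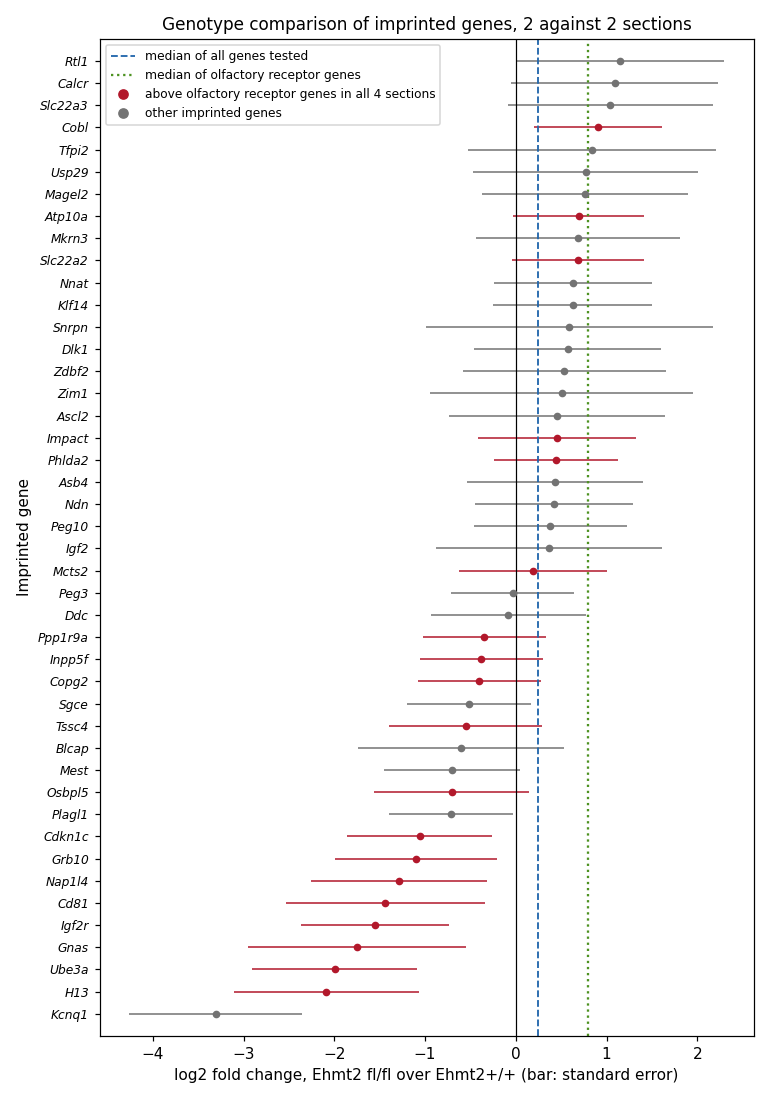
Log2 fold change, as fitted, of Ehmt2 fl/fl over Ehmt2+/+ sections for the 44 imprinted genes that passed the filter, with standard errors from edgeR's quasi-likelihood fit of 2 against 2 sections. Red points are the 19 genes at or above the 95th percentile of olfactory receptor genes in all 4 sections, grey points the other 25, the dashed line is the median of all 20066 genes and the dotted line that of olfactory receptor genes. No imprinted gene passed the adjusted threshold, and 5 of the 19 red and 18 of the 25 grey points lie to the right of the dashed line.

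Of the genes above the floor, H13, Ube3a, Gnas and Igf2r had the most negative relative values, -2.34 ± 1.02, -2.24 ± 0.90, -2.0 ± 1.2 and -1.80 ± 0.82 (log2, SE). Cd81 was at -1.69 ± 1.1, Nap1l4, a histone chaperone, at -1.53 ± 0.97, Grb10 at -1.35 ± 0.89 and Cdkn1c at -1.31 ± 0.79. On the CPM scale, 16 of the 19 were higher in both Ehmt2 fl/fl sections than in both Ehmt2+/+ sections, beside 90.2% of all genes. Gnas, Igf2r, Cd81, Nap1l4 and Grb10 were among these 16, so their negative relative values do not mean a lower CPM. Without Ehmt2+/+ replicate 1 the relative values of H13, Gnas, Igf2r and Cd81 were -0.63, -0.51, -0.21 and -0.044. Without Ehmt2+/+ replicate 2 they were -3.47, -3.07, -2.90 and -2.80, so their size rests on which Ehmt2+/+ section is used. Each of these 8 genes, like all 19 above the floor, stood further above the olfactory receptor median in Ehmt2+/+ replicate 1 than in the other 3 sections. Osbpl5, an oxysterol-binding protein, was at -0.96 ± 0.86, Tssc4 at -0.80 ± 0.84, the coatomer subunit Copg2 at -0.65 ± 0.67, the inositol phosphatase Inpp5f at -0.63 ± 0.68 and the actin-binding Ppp1r9a at -0.59 ± 0.68. Near or above 0 were Mcts2 at -0.06 ± 0.82, Phlda2 at 0.20 ± 0.69, Impact, a regulator of translation, at 0.20 ± 0.87, the organic cation transporter Slc22a2 at 0.44 ± 0.73, the lipid flippase Atp10a at 0.45 ± 0.72 and the actin nucleator Cobl at 0.66 ± 0.70. Adjusted p-values from edgeR's quasi-likelihood test of the folds as fitted were 0.872 for all 19 but Mcts2, for which it was 0.922. Leaving out Ehmt2+/+ replicate 1 turned the sign for Tssc4, Osbpl5, Nap1l4, Grb10, Ppp1r9a, Ube3a, Inpp5f, Mcts2 and Phlda2, so the direction of these 9 rests on that section, and Mcts2 also turned to 0.30 without TMM factors. Impact turned to -0.47 without Ehmt2+/+ replicate 2 and to -0.027 without Ehmt2 fl/fl replicate 1. Without Ehmt2+/+ replicate 1 Copg2 was at -0.13 and Slc22a2 at 0.0087.

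Kcnq1, named after its values were seen, had the most negative relative value of all 44, -3.55 ± 0.95, with an adjusted p of 0.190 for the fold as fitted in edgeR's quasi-likelihood test. Without Ehmt2+/+ replicate 1, which held 1595 of its UMIs, the value was -1.0, with an adjusted p of 0.0330 in edgeR and with 1.77% of all genes called. In that fit Peg3 was the other imprinted gene called, at 1.17 relative to all genes with an adjusted p of 0.00834, while with all 4 sections it was at -0.28 ± 0.67. Both values rest on a lone Ehmt2+/+ section, assumed to vary as the Ehmt2 fl/fl sections do. Without Ehmt2+/+ replicate 2, 38 of 44 imprinted genes were called, 19 higher and 19 lower, beside 83% of all genes, so the share of imprinted genes was again close to the background.

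Set beside olfactory receptor genes of like count, 24 imprinted genes outside the 19 had at least 20 such partners with total UMIs within a factor of 2. For 14 of these 24 the log2 fold change, here and in the next paragraph as fitted and not relative to all genes, lay inside the 5th to 95th percentile of their partners, for 10 it lay below and for 0 above. The 10 below were Igf2, Peg3, Ddc, Plagl1, Sgce, Peg10, Asb4, Mest, Ndn and Blcap. For Igf2 the value was 0.366 against a range of 0.374 to 1.24 over its partners, so it lay just outside, and for Plagl1, a zinc finger regulator of growth genes, it was -0.71 against 0.53 to 1.19. Usp29, Magel2, Snrpn, Rtl1, Calcr and Dlk1 were among the 14 whose fold change lay within the range of olfactory receptor genes. Partners were matched on total UMIs, and olfactory receptor genes had a median of 11 UMIs in Ehmt2+/+ replicate 1, against 48, 59 and 110 elsewhere. A gene with many UMIs in that section, such as Plagl1 with 277 or Mest with 238, therefore falls below its partners. The share of all genes of like count that lies below was not computed, so no conclusion is drawn from the 10.

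The machinery that keeps imprints was counted on the same sections. Of 21 genes listed as imprinting control, 12 stood above the floor in all 4 sections, beside 39.3% of all genes with a UMI. Between genotypes 0 of 21 were called in edgeR, beside 0.0947% of all genes. The list includes Ehmt2, and Ehmt2 was the 1 gene of it at an unadjusted p under 0.05, beside 5.01%. DESeq2 called 0, beside 0.957%. With so few genes called at all, 0 of 21 is close to the background and does not show equal levels. Trim28, the corepressor bound at control regions, was at 53.2 and 29.0 CPM in the Ehmt2+/+ sections and 61.4 and 56.3 CPM in the Ehmt2 fl/fl sections. Dnmt1, the maintenance DNA methyltransferase, was at 6.28 and 12.2 CPM in the Ehmt2+/+ sections and 34.7 and 37.5 CPM in the Ehmt2 fl/fl sections, and Ehmt1 at 4.13, 11.2, 24.7 and 25.8 CPM. Zfp57, the zinc finger protein that reads methylated control regions, had 13, 37, 73 and 100 UMIs and reached the 95th percentile of olfactory receptor genes in no section. Ehmt2 had a log2 fold change of -2.65 ± 0.79 with an adjusted p of 0.226 in edgeR's quasi-likelihood test. At 3.79 CPM Ehmt2+/+ replicate 2 lay below the 10.4 and 11.9 CPM of the Ehmt2 fl/fl sections. These values were 0.69, 1.24 and 0.92 times the olfactory receptor median, so they do not rank these sections. Ehmt2 reached the 95th percentile only in Ehmt2+/+ replicate 1, at 78.6 times the median, so the fold rests on the 865 UMIs of that section.

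Of 18 genes of the IGF axis, 12 stood above the floor, beside 39.3% of all genes with a UMI. Between genotypes 0 of the 17 tested were called in edgeR, beside 0.0947% of all genes, with 0 at an unadjusted p under 0.05, beside 5.01%. DESeq2 called 0, beside 0.957%. Igf1, the adult growth factor, was at 38.6 and 32.9 CPM in the Ehmt2+/+ sections and 70.3 and 58.0 CPM in the Ehmt2 fl/fl sections. The receptor Igf1r was at 13.5 and 14.5 CPM in the Ehmt2+/+ sections and 26.3 and 31.4 CPM in the Ehmt2 fl/fl sections. The binding protein Igfbp5 was at 5.73, 27.0, 39.1 and 34.0 CPM and was the only gene of the 3 further lists that edgeR called in matrix-rich spots, described below, with a log2 fold change of 1.25 ± 0.33 over other spots and an adjusted p of 0.0423 in edgeR. DESeq2 called Igfbp4 as well as Igfbp5 there. The adjusted p of Igfbp5 was 0.190, 0.632 and 0.401 in edgeR without Ehmt2+/+ replicate 2, Ehmt2 fl/fl replicate 1 and Ehmt2 fl/fl replicate 2.

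Within each section, spots were compared by the tissue they covered. Hormone-rich spots were the 5% of spots with at least 500 UMIs that held the largest share of islet hormone UMIs (Ins1, Ins2, Gcg, Sst, Ppy, Iapp and Pyy), 307 to 394 spots per section, and the hormone genes themselves were left out of the counts. The marker share of these spots had a median of 0.906% and 0.646% in the Ehmt2+/+ sections and 3.92% and 0.537% in the Ehmt2 fl/fl sections, so the median spot held under 1% hormone UMIs in 3 of the 4 sections. The genes with the lowest p there, none of them used to choose the spots, were Pcsk1n, Chga, Resp18, Syt13 and Chgb, of the secretory granules and exocytosis of endocrine cells.

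Peg3, Zim1 and Ddc were higher in hormone-rich spots than elsewhere in the same sections. In edgeR's quasi-likelihood test with section as a block, 3 of 44 imprinted genes were called, all 3 higher, beside 0.751% of all 19829 genes tested (0.721% higher), and 1 of 1082 olfactory receptor genes was called. Peg3, a zinc finger protein gene expressed from the paternal copy, had a log2 fold change of 2.24 ± 0.32 (SE, 4 sections, adjusted p = 8.53e-10). Standard errors and p-values here take a spread shared across genes, while the fold of Peg3 itself varied between sections, as given below. Ddc, the decarboxylase that makes dopamine and serotonin, had 1.79 ± 0.31 (adjusted p = 2.29e-06), and Zim1, the maternally expressed zinc finger neighbour of Peg3, had 1.64 ± 0.44 (adjusted p = 0.0224). The median over the 44 imprinted genes was -0.03, beside -0.19 over all genes tested and -0.13 over olfactory receptor genes.

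Peg3 (chr7:6703892-6730431, - strand) had 107 of 248 UMIs in the hormone-rich spots of Ehmt2+/+ replicate 1, 43.1% (95% Clopper-Pearson interval 36.9 to 49.6%), where these spots held 4.0% of all UMIs. In Ehmt2+/+ replicate 2 it had 3 UMIs there and 34 elsewhere, 8.11% (1.70 to 21.9%) beside 3.98% of all UMIs. In the Ehmt2 fl/fl sections it had 33 and 90 UMIs, 26.8% (19.2 to 35.6%) beside 4.96%, and 22 and 223 UMIs, 8.98% (5.71 to 13.3%) beside 4.20%. The share of Peg3 exceeded that of all UMIs in each of the 4 sections, and its interval excluded the share of all UMIs in each section but Ehmt2+/+ replicate 2. As CPM, Peg3 was at 61.1 in hormone-rich and 3.36 in other spots of Ehmt2+/+ replicate 1, 9.60 and 4.52 in Ehmt2+/+ replicate 2, 101 and 14.3 in Ehmt2 fl/fl replicate 1 and 66.0 and 29.3 in Ehmt2 fl/fl replicate 2. The intervals cover counting error only.

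**Figure D3:**
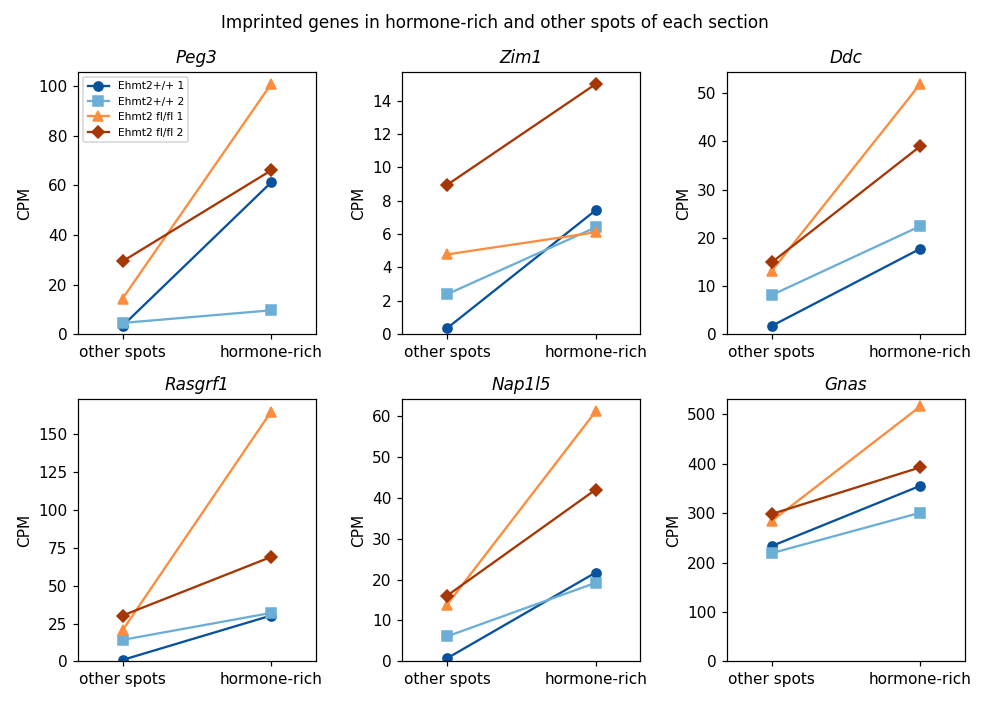
CPM of 6 imprinted genes in hormone-rich spots and in the other spots of the same section, with 1 line per section and the axis of each panel from 0. Peg3, Zim1, Ddc, Rasgrf1 and Nap1l5 passed the adjusted threshold and Gnas did not; the hormone-rich value is the higher in each section and panel, from Zim1 in Ehmt2+/+ replicate 1 (0.357 and 7.43 CPM) to Gnas in Ehmt2 fl/fl replicate 1 (284 and 516 CPM).

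Ddc (chr11:11814101-11898144, - strand) had 31, 7, 17 and 13 UMIs in the hormone-rich spots of the 4 sections, taken in the order Ehmt2+/+ replicates 1 and 2 and Ehmt2 fl/fl replicates 1 and 2. These were 30.4%, 10.3%, 17.2% and 10.3% of its UMIs, with lower interval bounds of 21.7%, 4.24%, 10.3% and 5.61%, all above the share of all UMIs. Zim1 (chr7:6671269-6696450, - strand) had 13, 2, 2 and 5 UMIs there, 46.4%, 10.0%, 6.25% and 6.85% of its UMIs, and only in Ehmt2+/+ replicate 1 did the lower bound, 27.5%, exceed the share of all UMIs. Its call rested on that section: without it the log2 fold change was 0.74 with an adjusted p of 0.972 in edgeR. Peg3 and Ddc passed the threshold under all 9 alternatives, each section left out included, with log2 fold changes of 1.75 to 2.76 and 1.32 to 2.33.

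The size of the difference moved with how narrowly the spots were drawn. With the top 2%, 5% and 10% of spots by hormone share, Peg3 had log2 fold changes of 2.76 ± 0.41, 2.24 ± 0.32 and 1.75 ± 0.25. Ddc had 2.33 ± 0.40, 1.79 ± 0.31 and 1.32 ± 0.25, and Zim1 had 2.21 ± 0.56, 1.64 ± 0.44 and 1.37 ± 0.36. These sets of spots are nested and share UMIs, so the steps are not independent.

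Usp29, which lies head to head with Peg3 and shares its promoter region, was not called with it. Usp29 had 0, 1, 2 and 5 UMIs in hormone-rich spots and 13, 40, 45 and 101 in other spots, with a log2 fold change of -0.32 ± 0.56. The windows below run from 250 bases before to 50 bases after the RefSeq start on GRCm38.p6, read 5′ to 3′ along the gene, and are shown because Peg3 and Zim1 lie next to each other on the - strand of chromosome 7 and were called together. Capitals mark CG, the dinucleotide that DNA methylation acts on. Peg3, chr7:6730370-6730669, - strand:
Peg3: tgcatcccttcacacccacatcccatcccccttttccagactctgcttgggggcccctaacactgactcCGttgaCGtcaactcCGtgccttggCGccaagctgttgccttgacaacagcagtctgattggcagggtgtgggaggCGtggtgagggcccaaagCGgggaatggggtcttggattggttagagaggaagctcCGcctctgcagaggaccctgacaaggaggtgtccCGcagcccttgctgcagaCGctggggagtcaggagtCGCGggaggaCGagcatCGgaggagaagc
Zim1, chr7:6696383-6696682, - strand:
Zim1: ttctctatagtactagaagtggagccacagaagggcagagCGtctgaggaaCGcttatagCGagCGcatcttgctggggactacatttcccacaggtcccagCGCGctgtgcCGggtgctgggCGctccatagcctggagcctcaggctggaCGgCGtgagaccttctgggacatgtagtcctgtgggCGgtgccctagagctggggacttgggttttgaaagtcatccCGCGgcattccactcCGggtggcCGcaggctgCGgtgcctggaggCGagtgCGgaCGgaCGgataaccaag
The Peg3 window held 13 CG and the Zim1 window 20, beside a median of 7 over all 32851 windows, and 37.9% and 26.5% of all windows held at least as many. The Usp29 window, on the opposite strand at chr7:6730333-6730632, overlaps that of Peg3. The 2 RefSeq starts of Ddc had 2 and 5 CG. The assay does not say which start was used and measured no methylation.

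Of 12 further imprinted genes with UMIs that were outside the 45, 2 were called in hormone-rich spots, beside 0.751% of all genes. Rasgrf1, a Ras exchange factor expressed in neurons and beta cells, had a log2 fold change of 2.33 ± 0.31 (adjusted p = 1.63e-11, edgeR). Nap1l5, a nucleosome assembly protein gene inside an intron of Herc3, had 2.26 ± 0.31 (adjusted p = 2.00e-10, edgeR). Rasgrf1 had 53, 10, 54 and 23 UMIs in hormone-rich spots and Nap1l5 had 38, 6, 20 and 14, and both had a larger share of their UMIs there than all UMIs in each of the 4 sections. Without Ehmt2+/+ replicate 1 they had 1.94 ± 0.22 and 1.71 ± 0.32, while DESeq2 gave adjusted p-values of 0.0739 for Rasgrf1 and 1.69e-06 for Nap1l5. Of the 21 imprinting control genes 0 were called there in edgeR and 0 by DESeq2, with 2 at an unadjusted p under 0.05 in edgeR. For the 17 IGF axis genes tested these counts were 0, 0 and 1. Over all genes the shares were 0.751%, 0.57% and 6.10%.

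Other imprinted genes known from islets did not pass the test in these spots. Gnas had 622, 94, 169 and 131 UMIs in hormone-rich spots, a CPM 1.32 to 1.82 times that of other spots in the 4 sections, and a log2 fold change of 0.23 ± 0.28 with TMM scaling. Cdkn1c, whose loss in islet cells is linked to their overgrowth, had -0.77 ± 0.34 with an adjusted p of 0.670 in edgeR. Nnat, a membrane protein of beta cells, had 0.51 ± 0.38, Dlk1 -0.60 ± 0.48, Igf2 -0.20 ± 0.53 and Plagl1 -0.37 ± 0.37. Nnat, Dlk1, Igf2 and Plagl1 had only 25, 10, 9 and 26 UMIs in hormone-rich spots over the 4 sections. None of them stood above the floor in every section, so these values do not show equal levels in both kinds of spot. On the CPM scale, 8 imprinted genes were higher in hormone-rich than in other spots in all 4 sections, beside 11.3% of all genes: Cd81, Osbpl5, Nap1l4, Peg3, Zim1, Ddc, Ppp1r9a and Gnas. Without TMM factors, Gnas and Cd81 were called along with Peg3, Ddc and Zim1, beside 1.66% of all genes.

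In matrix-rich spots, the 5% with the largest share of collagen and other fibroblast UMIs, 0 of 44 imprinted genes were called, beside 0.424% of all 19811 genes, with 5 at an unadjusted p under 0.05 in edgeR, beside 8.69% of all genes, and 0 called by DESeq2, beside 1.13%. The genes with the lowest p were Car3, Myh11, Acta2, Cfd and Eln, of fat, smooth muscle and elastic fibres. Of these 5, Zim1 and Rtl1, a retrotransposon-derived gene of placental vessels and muscle, had log2 fold changes of 1.11 ± 0.46 and 1.05 ± 0.36, with adjusted p-values of 0.448 and 0.265. The other 3 were negative, with Klf14, a zinc finger transcription factor, at -1.21 ± 0.48, Kcnq1 at -0.88 ± 0.42 and Nap1l4 at -0.77 ± 0.34. Dlk1 and Igf2, known from fetal mesenchyme, had 0.30 ± 0.40 and 0.37 ± 0.47. The Igf2 value pooled unlike sections. In the Ehmt2+/+ sections matrix-rich spots held 6 and 5 of its UMIs, 19.4% and 14.3%, beside 1.72% and 3.49% of all UMIs. In the Ehmt2 fl/fl sections they held 1 and 1, or 1.79% and 1.27%, beside 4.24% of all UMIs in each. These counts are small, and the difference between genotypes was not tested. On the CPM scale 15 of 45, Zim1 among them, were higher in matrix-rich spots in all 4 sections, beside 25.3% of all genes. Matrix-rich and hormone-rich spots shared 40 and 49 spots in the Ehmt2+/+ sections and 9 and 13 in the Ehmt2 fl/fl sections, so these sets are not separate. In Ehmt2+/+ replicate 1 Peg3 had 10.9% of its UMIs in matrix-rich spots, beside 1.72% of all UMIs. Elsewhere it had 0%, 2.44% and 6.12%, beside 3.49%, 4.24% and 4.24%.

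Enzyme-rich spots were the 5% with the largest share of digestive enzyme UMIs. Their median enzyme share was 70.9% and 66.5% in the Ehmt2+/+ sections, against 64.9% and 55.3% in other spots. In the Ehmt2 fl/fl sections it was 44.5% and 44.9%, against 20.4% and 18.2% in other spots. The contrast was thus smaller in the Ehmt2+/+ sections. The enzyme genes were left out of the counts and totals, so CPM here are relative to the UMIs of the remaining genes. In enzyme-rich spots 0 of 43 imprinted genes were called, beside 0.119% of all 19349 genes. At an unadjusted p under 0.05 in edgeR there was 1, H13, beside 7.64% of all genes. H13 had a log2 fold change of 0.60 ± 0.28 with an adjusted p of 0.635, Cd81 had 0.46 ± 0.29 and Gnas 0.42 ± 0.32. These 3 were also the only imprinted genes whose CPM was higher in enzyme-rich spots in all 4 sections, beside 2.93% of all genes, and DESeq2 called all 3, beside 1.98% of all genes, as did edgeR without Ehmt2+/+ replicate 1, beside 4.44%. On the CPM scale 15 of 45 were lower there in all 4 sections, beside 27.3% of all genes.

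**Figure D4:**
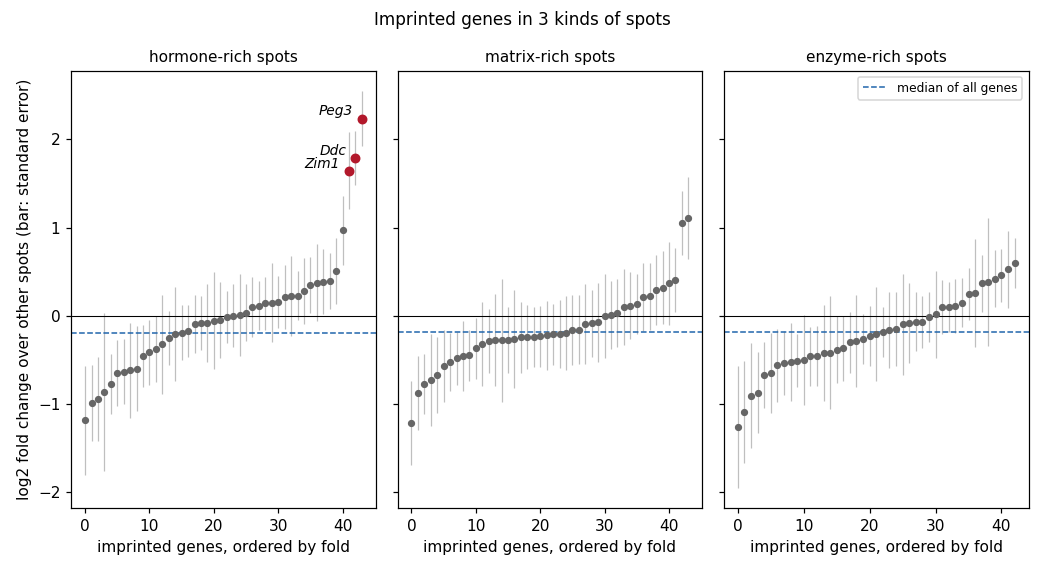
Log2 fold changes of the imprinted genes in hormone-rich, matrix-rich and enzyme-rich spots over the other spots of the same sections, ordered within each panel, with standard errors from edgeR and the median of all genes tested as a dashed line. Peg3, Ddc and Zim1, in red, passed the adjusted threshold in hormone-rich spots, at 2.24, 1.79 and 1.64; no gene did in the other panels.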

How the data were processed

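The authors hybridised the mouse Visium probes on each section with the CytAssist and ran Space Ranger 2.0.1 against mm10 (GRCm38). What they deposited are raw UMI counts, whole numbers for each feature in each listed spot. Of 32589 features, 304 marked as deprecated were left out. Spots over tissue were those above the lowest point between the 2 highest modes of each section's histogram of log10(UMIs + 1), since the tissue marks carry no barcodes. Counts were summed per section, or per section and kind of spot, and tested with edgeR 4.0.16 (quasi-likelihood test, TMM, filterByExpr at a minimum count of 10, with p-values adjusted over all genes tested by Benjamini-Hochberg at a threshold of 0.05). Spots are not replicates. Nothing but the animal numbers in the labels says how the sections were prepared, so p-values measure the spread between these sections. In the edgeR fits that spread was shared across genes, so p-values and standard errors do not measure how far a single gene varied. CPM are UMIs per 1000000 UMIs of a sum. Standard errors were taken from the F statistic. DESeq2 1.42.0, other scalings, filters, spot limits and each section left out were alternatives, as was, between genotypes, a fit with the digestive enzyme genes left out. The fits were also run on simulated counts in which all sections shared the same mean profile apart from the genes changed. Such counts lack the difference in composition between these sections, so they do not test the scaling of folds between genotypes. Gene positions are from GENCODE M21 and promoter windows from RefSeq, both GRCm38, and 37 of the 45 symbols matched a window. Parental expression classes and domains are textbook knowledge.

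The 45 genes, the further lists and the tests were chosen with earlier results of these data known. Named between genotypes were the 19 genes at or above the 95th percentile of olfactory receptor genes in all 4 sections and any gene called, and in each kind of spot up to 8 called genes. The result of 1 marker list is not reported here.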

Additional observations from a re-analysis of the deposited data

How the results depend on the processing

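No paired analysis was possible because the labels give no replicate numbers that pair sections between genotypes. Between genotypes, 0 imprinted genes were called under the 6 edgeR alternatives that kept all sections, and DESeq2 called 1 (Kcnq1, beside 0.957% of all genes). Leaving out 1 section gave 0 to 38 called genes and a median of -0.21 to 0.035 relative to all genes, with 38 and -0.21 without Ehmt2+/+ replicate 2 and 2 called without Ehmt2+/+ replicate 1. Of 223 pairs of a named gene and an alternative, 17 turned the sign of the fold change relative to all genes and 13 of those left out a section. Without TMM factors Mcts2 was at 0.30 and Peg3 at 0.47, and with upper-quartile scaling they were at 0.17 and 0.18. Leaving out 1 section gave ranges of -0.029 to 0.47 for Phlda2, -1.72 to 0.22 for Tssc4, -1.87 to 0.076 for Osbpl5, -2.68 to 0.26 for Nap1l4, -2.47 to 0.32 for Grb10, -1.48 to 0.35 for Ppp1r9a, -3.48 to 0.13 for Ube3a, -1.44 to 0.18 for Inpp5f, -0.74 to 0.51 for Mcts2, -0.47 to 0.74 for Impact and -1.32 to 1.17 for Peg3. In hormone-rich spots leaving out 1 section gave 2 or 3 called genes, with 2 without Ehmt2+/+ replicate 1, beside 0.675% of all genes. DESeq2 called 2 there, beside 0.57% of all genes, and gave no adjusted p for Zim1. Library sizes without TMM factors called 5, beside 1.66% of all genes. Without TMM factors 4 were called in matrix-rich spots (Mcts2, Zim1, Peg3 and Rtl1, beside 5.70% of all genes). In enzyme-rich spots DESeq2 called 3, beside 1.98% of all genes. Leaving out 1 section gave 0 to 3 there, with 3 without Ehmt2+/+ replicate 1, beside 4.44% of all genes. With the 99th percentile of olfactory receptor genes 13 genes stood above the floor in every section, and with every listed spot 18. The causes were not tested. The common dispersion was 0.362 between genotypes, 0.030 without either Ehmt2+/+ section and 0.622 without either Ehmt2 fl/fl section, and 0.0503 for hormone-rich spots.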
